A study of Mus musculus with 2 samples.

Results

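The transcripts described here are those of 10 genes of the bone morphogenetic protein (BMP) and growth and differentiation factor (GDF) system in mouse knee joint cells, out of 32285 genes in the matrix. Of these genes, 7 encode ligands (Bmp2, Bmp4, Bmp5, Bmp6, Bmp7, Gdf5 and Gdf10) and 3 encode receptors (Bmpr1a, Bmpr1b and Bmpr2). They were taken by gene symbol, and all 10 symbols were present. No measured value was part of the rule, but earlier results of these data were known when the genes were chosen. The question put to them was which joint cells carry transcripts of the ligands, as possible senders, and which carry transcripts of the receptors, as possible receivers.

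BMPs and GDFs are secreted proteins, most of which bind a complex of type I and type II receptor kinases on the surface of the receiving cell. For many of these ligands, though not all, the type II receptor activates a type I receptor that phosphorylates Smad1, Smad5 and Smad9. These Smads join Smad4 and act on target genes such as those of the Id family. The pathway is known in the skeleton for its part in cartilage, bone and joint formation, and secreted antagonists such as noggin limit its range.

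The cells came from joints of mice knocked out for Col12a1, the gene of collagen XII (KO), and of wild-type mice (WT), all at postnatal day 7 and of both sexes. Hindlimb knee joints were freed of skin and paws and digested for 6 h with 4 mg/mL collagenase II, and 3' single-cell libraries were prepared by the droplet method of 10x Genomics. According to the labels a first experiment gave 1 library of each genotype and another gave 2 of each, and 1 merged matrix was analysed. The sources used here give neither strain nor allele design, nor whether joints were pooled within a library.

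The matrix held 257619292 unique molecular identifiers (UMIs, each marking 1 captured transcript) in 24203 barcodes, parted by their ending into barcode set 1 (11906 barcodes) and barcode set 2 (12297 barcodes). The sets share 40 barcode sequences, 14 of them among the cells kept. No label ties a set to a genotype, so KO cells were not compared with WT cells, and every level below describes a mixture of both. Col12a1 itself was at 52.2 CPM (UMIs of the gene scaled to 1000000 UMIs) in set 1 and 257 CPM in set 2, and no genotype was read from these values. Genotype, experiment and library cannot be told apart in a difference between the sets. After filtering, 15174 cells remained, 7160 in set 1 with a median of 10964 UMIs and 8014 in set 2 with a median of 9623 UMIs. They formed 33 clusters, of which 17 classes were named by marker genes and 7 clusters stayed unnamed. The 10 genes and the pathway genes below were left out of the clustering.

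The promoters of the 3 receptor genes are shown first, because these genes differed in their distribution over the cell classes: Bmpr1a was called higher in no class, Bmpr1b was highest in tendon-type cells and Bmpr2 in mast-like cells. Each sequence holds the 250 bases before a transcription start in RefSeq, build GRCm38.p6, read 5′ to 3′ on the gene's strand. They lie at chr14:34502547-34502796 (minus strand) for Bmpr1a, chr3:141982265-141982514 (minus strand) for Bmpr1b and chr1:59764029-59764278 (plus strand) for Bmpr2. Capitals mark GGCGCC, a letter pattern of the kind bound by BMP-activated Smads, or AACAAT on either strand (ATTGTT on the printed one), the core pattern of Sox factors.
Bmpr1a: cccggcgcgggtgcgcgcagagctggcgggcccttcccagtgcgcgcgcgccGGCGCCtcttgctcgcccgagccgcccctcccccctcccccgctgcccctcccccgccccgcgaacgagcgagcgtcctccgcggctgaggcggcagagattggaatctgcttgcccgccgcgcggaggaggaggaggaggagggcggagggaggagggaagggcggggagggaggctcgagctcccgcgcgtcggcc
Bmpr1b: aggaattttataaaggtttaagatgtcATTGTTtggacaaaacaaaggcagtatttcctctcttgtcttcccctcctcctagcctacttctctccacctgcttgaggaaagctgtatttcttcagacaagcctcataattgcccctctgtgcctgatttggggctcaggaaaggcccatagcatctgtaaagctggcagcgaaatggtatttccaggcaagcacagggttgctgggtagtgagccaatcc
Bmpr2: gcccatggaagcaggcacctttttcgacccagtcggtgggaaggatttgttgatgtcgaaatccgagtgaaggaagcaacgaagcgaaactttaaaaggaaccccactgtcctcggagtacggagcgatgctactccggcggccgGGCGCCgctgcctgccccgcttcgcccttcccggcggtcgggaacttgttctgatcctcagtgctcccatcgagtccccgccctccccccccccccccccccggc
Guanine and cytosine made up 78.8% of the Bmpr1a window, 46.8% of the Bmpr1b window and 64% of the Bmpr2 window. GGCGCC, which reads the same on both strands, was present in 9.59% of the 32851 promoters of the same length, and AACAAT on either strand in 9.42%. RefSeq promoters were matched for 7 of the 10 genes, with 9 promoters in all because Bmpr1b has 3 starts, and each pattern was present in 2 of the 9. Bmp2, Bmp7 and Gdf5 had no matched promoter. The printed Bmpr1b window belongs to the start whose next bases occur in an annotated transcript, and 1 of its other starts also holds AACAAT. All 3 printed windows lie inside the annotated span of their gene. For Bmpr1b the window lies far inside, since the gene reaches 142169425 at its 5′ end. The 3' libraries do not show which start was used. A match of letters is a description of the window and not a binding site.

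Levels are given in CPM, the UMIs of a gene summed over the cells of a class and scaled to 1000000 UMIs of that class, with 95% intervals that cover counting error only. These are 3' counts, in which a transcript is counted once whatever its length. Levels in a class were set against those in all other kept cells. A call of higher (ratio 2 or above) or lower (0.5 or below) needed 100 UMIs of the gene in total, a 95% interval that leaves out 1, and barcode sets that pointed the same way. With 1 merged matrix there are no replicates and no p-values. Over the 17 classes, 14 pairs of a class and 1 of the 10 genes were called higher. Among all genes tested, the share called higher ran from 5.4% in tenocyte-like or ligament fibroblast-like cells to 21.8% in B cell-like cells. The count of 14 is therefore not read as a trait of these 10 genes. Because droplets also capture free RNA, 3 blood classes (B cell-like, neutrophil-like and erythroid-like, 4824 cells together with a median of 5342 UMIs) serve as the background.

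Chondrocyte-like cells were the richest class in ligand transcripts. Cluster 8, with 690 cells and a median of 16745 UMIs, was led by the cartilage matrix genes Matn1, Snorc and Matn3, and its 9 chondrocyte markers summed to 69711 CPM (set 1) and 80178 CPM (set 2), against 2443 and 2281 CPM in all other kept cells. In it 5 of the 10 genes were called higher (Bmp2, Bmp5, Bmp6, Bmp7 and Gdf5), while 7.59% of the 16900 genes tested were called higher in that class. Only Bmp4 among the 10 was called lower, against 33.5% of all genes tested. The 7 ligand genes together had 662 CPM in chondrocyte-like cells (694 in set 1 and 622 in set 2) and 11.3 CPM in the blood background.

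Bmp6, whose protein signals through BMP type I receptors and is known in iron regulation and cartilage, was the most abundant ligand transcript there. In chondrocyte-like cells it had 339 CPM (set 1) and 269 CPM (set 2), and at 42.6 CPM in all other kept cells over both sets. The ratio was 7.24 (6.98 to 7.51), at 8.90 in set 1 and 5.73 in set 2. Both sets of chondrocyte-like cells lay above every other named class, and synovial lining fibroblast-like cells, next in order at 104 CPM, had no interval in common with them. Bmp6 made up 46.5% of all UMIs of the 7 ligands in the class.

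Bmp2, a ligand that induces cartilage and bone, had 209 CPM (set 1) and 184 CPM (set 2) of chondrocyte-like cells, against 46.8 CPM in all other kept cells. Its ratio was 4.22 (4.04 to 4.40). Bmp5, whose loss shortens the ears of mice through defects of cartilage, had 116 and 121 CPM, against 19.2 CPM in all other kept cells, a ratio of 6.15 (5.81 to 6.51). For both genes the 2 sets of chondrocyte-like cells stood close together and above the other named classes, except that pericyte-like or smooth muscle-like cells of set 2 had a Bmp5 interval overlapping theirs.

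Gdf5, the ligand known for marking the forming joint, was rare. Its 280 UMIs among all kept cells gave 8.02 CPM (set 1) and 9.75 CPM (set 2) of chondrocyte-like cells, and 0.764 CPM in all other kept cells, a ratio of 11.5 (9.02 to 14.7). Chondrocyte-like cells held 45% of its UMIs and the unnamed cluster 9 held 35%. Bmp7, best known for kidney and eye development, was also low, at 12.03 CPM (set 1) and 23.6 CPM (set 2) of chondrocyte-like cells, against 4.49 CPM in all other kept cells (ratio 3.82, 3.31 to 4.40). Bmp4 went the other way, with 2.13 and 4.09 CPM in chondrocyte-like cells against 19.7 CPM in all other kept cells, 6.56-fold lower (4.86 to 9.07).

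**Figure D1:**
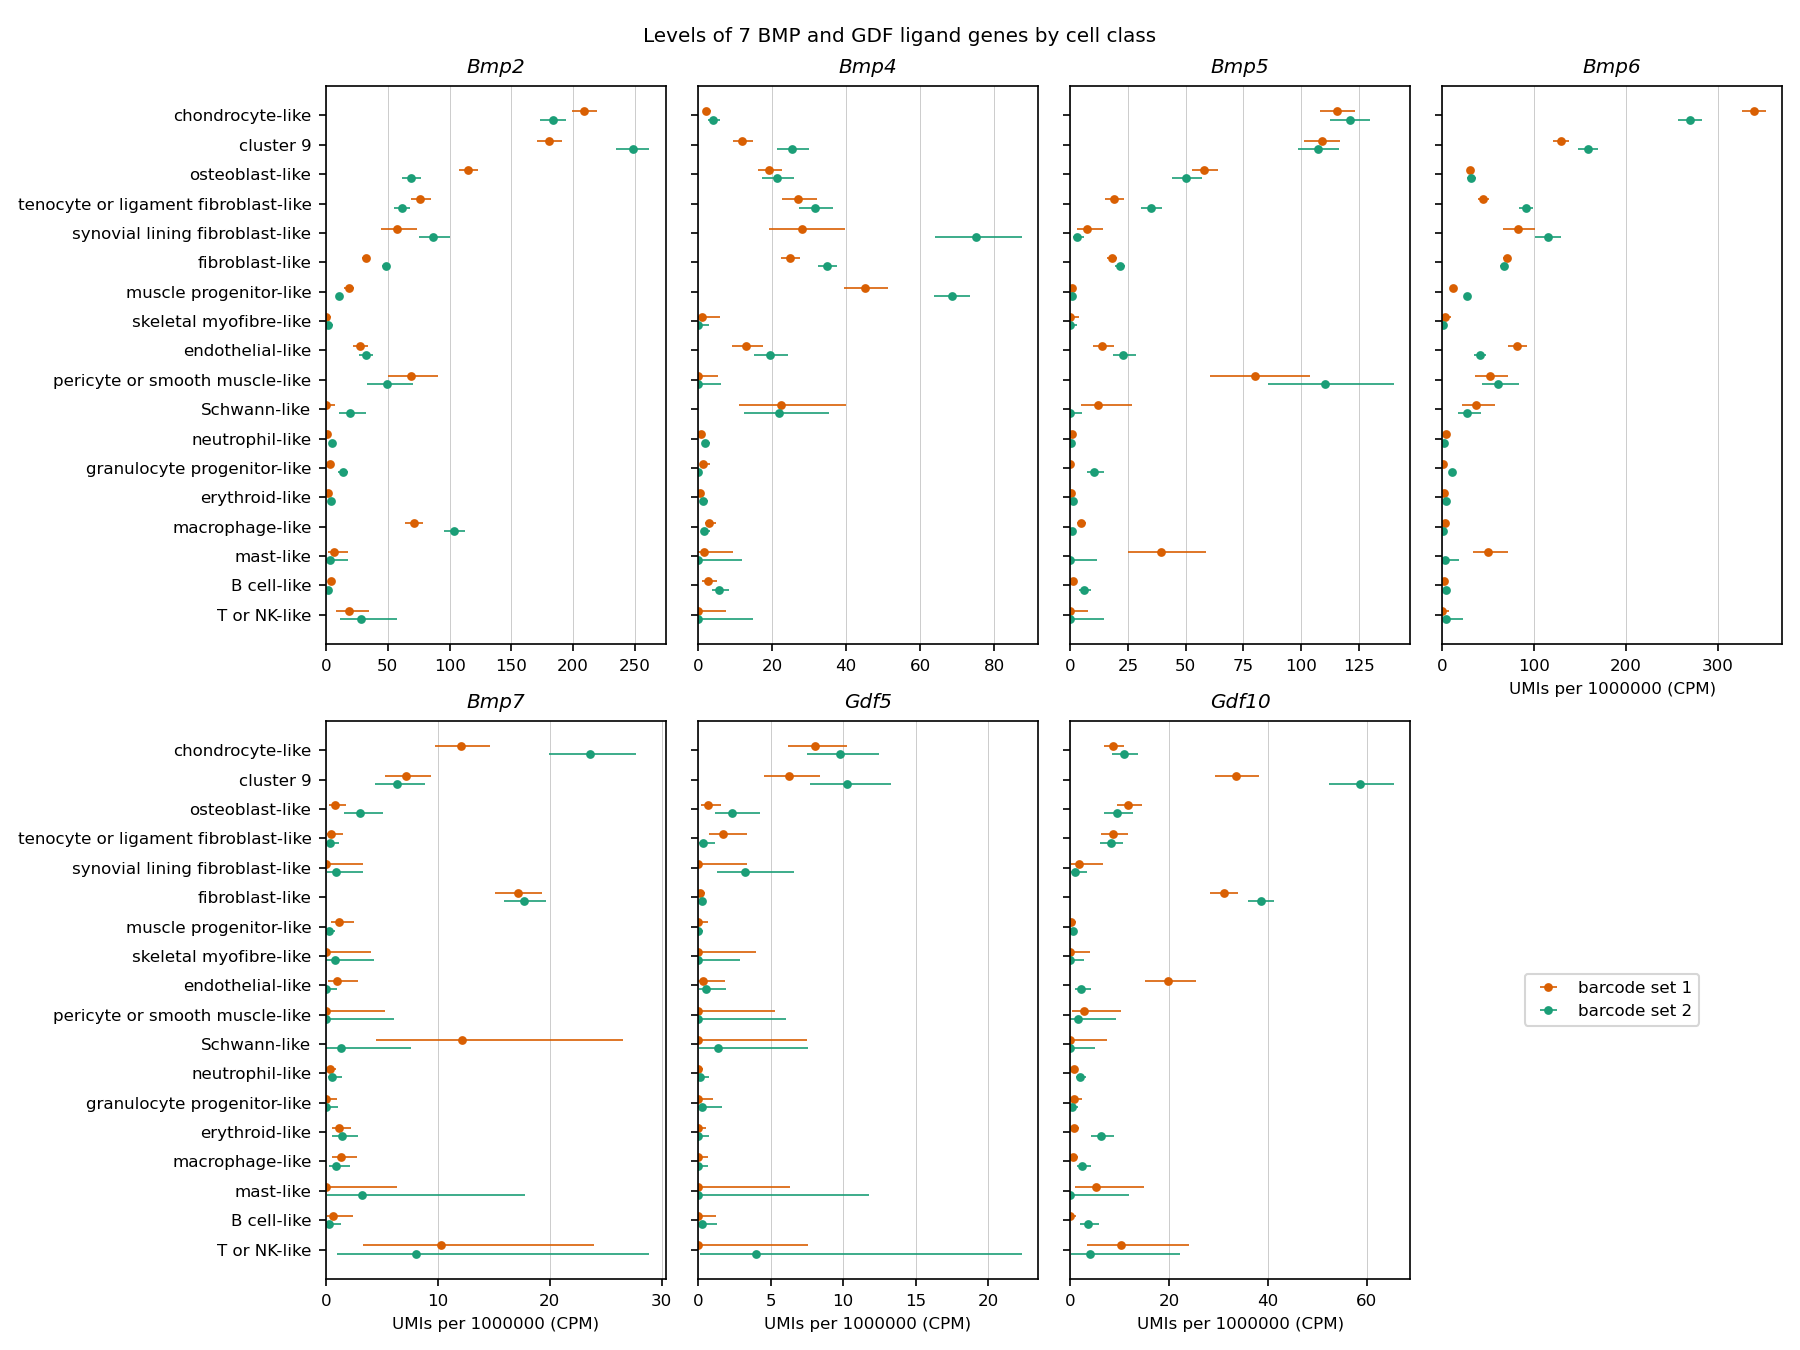
Levels of the 7 ligand genes in 17 named cell classes and cluster 9, in CPM on linear axes that differ between genes; points are barcode sets 1 and 2 and lines are exact 95% Poisson intervals. Chondrocyte-like cells and cluster 9 are the 2 highest for Bmp2, Bmp6 and Gdf5 in both sets and for Bmp5 in set 1 (in set 2 pericyte-like or smooth muscle-like cells, at 110.4 CPM, lie above cluster 9), muscle progenitor-like and synovial lining fibroblast-like cells are highest for Bmp4, and fibroblast-like cells stand with chondrocyte-like cells for Bmp7.

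Another population carried much of the same ligand set. Cluster 9 (680 cells, median 12033 UMIs) was led by Msmp, Cytl1, Prg4, Mmp3 and Wif1, of which Prg4 encodes the joint lubricant lubricin. It was left unnamed, because 7 of the 9 listed chondrocyte markers were raised in it, while its 10 leading genes held 1 of the 5 listed synovial lining markers (Prg4) and none of those 9. Sox5, a factor of cartilage formation that is not on the marker list, was also among the 10. Its chondrocyte markers summed to 34444 CPM and its synovial lining markers to 6950 CPM. Of the 10 genes, 5 were called higher in it (Bmp2, Bmp5, Bmp6, Gdf5 and Gdf10), where 6.65% of all genes tested were, and none was called lower, where 29.3% were. The Bmp6 call was lost, at a ratio of 1.88, without blood cells among the other cells.

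Bmp2 in cluster 9 was at 180 CPM (set 1) and 248 CPM (set 2), against 47.6 CPM in all other kept cells, a ratio of 4.41 (4.22 to 4.61). Gdf10, a ligand related to BMP3, was at 33.6 and 58.6 CPM there, against 14.4 CPM, a ratio of 3.09 (2.81 to 3.38). Set directly against cluster 9, chondrocyte-like cells were called higher in 2 of the 10 genes, Bmp6 and Bmp7, where 5.31% of the genes tested were called higher. Bmp6 was 2.17 times (2.05 to 2.30) and Bmp7 2.53 times (1.97 to 3.29) the level of cluster 9. In set 2 alone Bmp6 in chondrocyte-like cells was at 269 CPM, against 158 CPM in cluster 9, and in set 1 alone Bmp7 was at 12.03 and 7.12 CPM, both less than 2-fold apart. They were called lower in Bmp4 and Gdf10, where 5.9% of genes were, at 5.93-fold (4.26 to 8.43) and 4.63-fold (3.83 to 5.62) below cluster 9. Bmp2, Bmp5, Gdf5 and the 3 receptors were not called in either direction.

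To set shares of cells side by side, each cell was thinned to 2000 UMIs. A Bmp2 UMI was then seen in 25.1% of chondrocyte-like cells and 21.5% of cluster 9, against 0.252% of the blood background. For Bmp6 the shares were 26.7% and 18.6%, against 0.229% of the background, and for Bmp5 18.6% and 16.5%, against 0.0917%. At least 1 UMI of any of the 7 ligands was seen in 58.3% of chondrocyte-like cells, 52.9% of cluster 9, 38.1% of synovial lining fibroblast-like cells, 31.6% of fibroblast-like cells and 1.06% of the background. Ligand transcripts were thus found in many single cells of cluster 8 and cluster 9 and not in a few cells only. Without thinning, 65.1% of chondrocyte-like cells had a Bmp2 UMI.

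Muscle progenitor-like and synovial lining fibroblast-like cells were the 2 classes in which Bmp4 was called higher. Bmp4, a ligand with broad roles in the embryo, stood at 45.1 CPM (set 1) and 68.6 CPM (set 2) of the 1273 muscle progenitor-like cells, and at 14.98 CPM in all other kept cells (ratio 4.09, 3.80 to 4.39). It was the only one of the 10 genes called higher there, where 13% of genes were, and 6 of the 10, all of them ligands, were called lower, where 25.4% of genes were. In the 155 synovial lining fibroblast-like cells, which line the joint cavity, it had 28.02 CPM (set 1) and 75.01 CPM (set 2), against 17.9 CPM in all other kept cells (ratio 3.30, 2.84 to 3.81). The call was lost with 15 principal components, at a ratio of 1.57. Bmp4 was the only one called higher in that class too, against 7.82% of genes, and 4 of the 10 were called lower (Bmp5, Bmp7, Gdf10 and Bmpr1b), against 22.1% of genes. The 2 classes were not separable in level, since their intervals overlapped and the sets put them in opposite orders.

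Within the muscle lineage Bmp4 followed the clusters. Cluster 7, led by the satellite cell gene Pax7, had 60.1 CPM (set 1) and 93.8 CPM (set 2). Cluster 25, led by histone genes and Myod1, had 71.0 and 81.3 CPM. Cluster 16, led by the differentiation gene Myog, had 2.64 CPM (set 1, on 4 UMIs) and 12.8 CPM (set 2). Over both sets it lay 8.58-fold (6.36 to 11.8) below the other muscle progenitor-like clusters. By set it was 23.7-fold below them (set 1) and 7.06-fold below them (set 2). Of the 10 genes, Bmp2 and Bmp4 were called higher in cluster 7 than in the other clusters of the class, where 2.66% of genes were, and none lower, where 4.2% were. Bmp4 was at a ratio of 2.26 in set 1 and 2.24 in set 2, but the Bmp2 call rested on set 2, with ratios of 1.04 in set 1 and 3.57 in set 2. In cluster 16, Bmp2, Bmp4 and Bmp6 were called lower, where 18.1% were, and none higher, where 4.96% were. Bmp5, Bmp7, Gdf5 and Gdf10 had too few UMIs for a call there. Skeletal myofibre-like cells had 1 Bmp4 UMI in 255 cells, and 8 of the 10 genes were called lower in them, where 54.4% of genes were, and none higher, where 8.04% were.

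Fibroblast-like cells, 2110 cells in 2 clusters, were called higher for Bmp7 and Gdf10, 2 of the 10 genes, where 9.53% of genes were. Bmp7 was at 17.1 CPM (set 1) and 17.7 CPM (set 2), against 2.91 CPM in all other kept cells (ratio 6.00, 5.34 to 6.75), a level that overlapped that of chondrocyte-like cells. Gdf10 was at 31.1 and 38.5 CPM, against 12.3 CPM (ratio 2.87, 2.68 to 3.08). Gdf5 was the only one of the 10 called lower, 7.78-fold (3.72 to 19.5), where 22% of genes were. Gdf10 in this class was not called higher at a resolution of 2, with a ratio of 1.02, or with 200 genes and 500 UMIs per cell, with a ratio of 1.68.

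Between the 2 fibroblast-like clusters, as many of the 10 genes differed as among all genes. Cluster 0, led by Ebf2, Abca8a and Cd248, was called higher in 3 of the 10 genes, Bmp4, Bmp5 and Gdf10, where 30.4% of genes were. Bmp5 was 9.26 times (6.73 to 13.1; 15.7 in set 1 and 6.80 in set 2), Bmp4 5.56 times (4.52 to 6.91) and Gdf10 2.44 times (2.12 to 2.83) the level of cluster 6. Cluster 6, led by Csf2, Brinp3 and Pi16, was called higher in Bmp6 alone, where 9.42% of genes were, at 125 CPM in each set, against 35.5 CPM (set 1) and 39.0 CPM (set 2) of cluster 0 (ratio 3.32, 3.06 to 3.61). Bmp2 was at 39.1 CPM in cluster 6 and 42.8 CPM in cluster 0, and Bmp7 at 18.4 CPM in cluster 6 and 16.9 CPM in cluster 0.

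**Figure D2:**
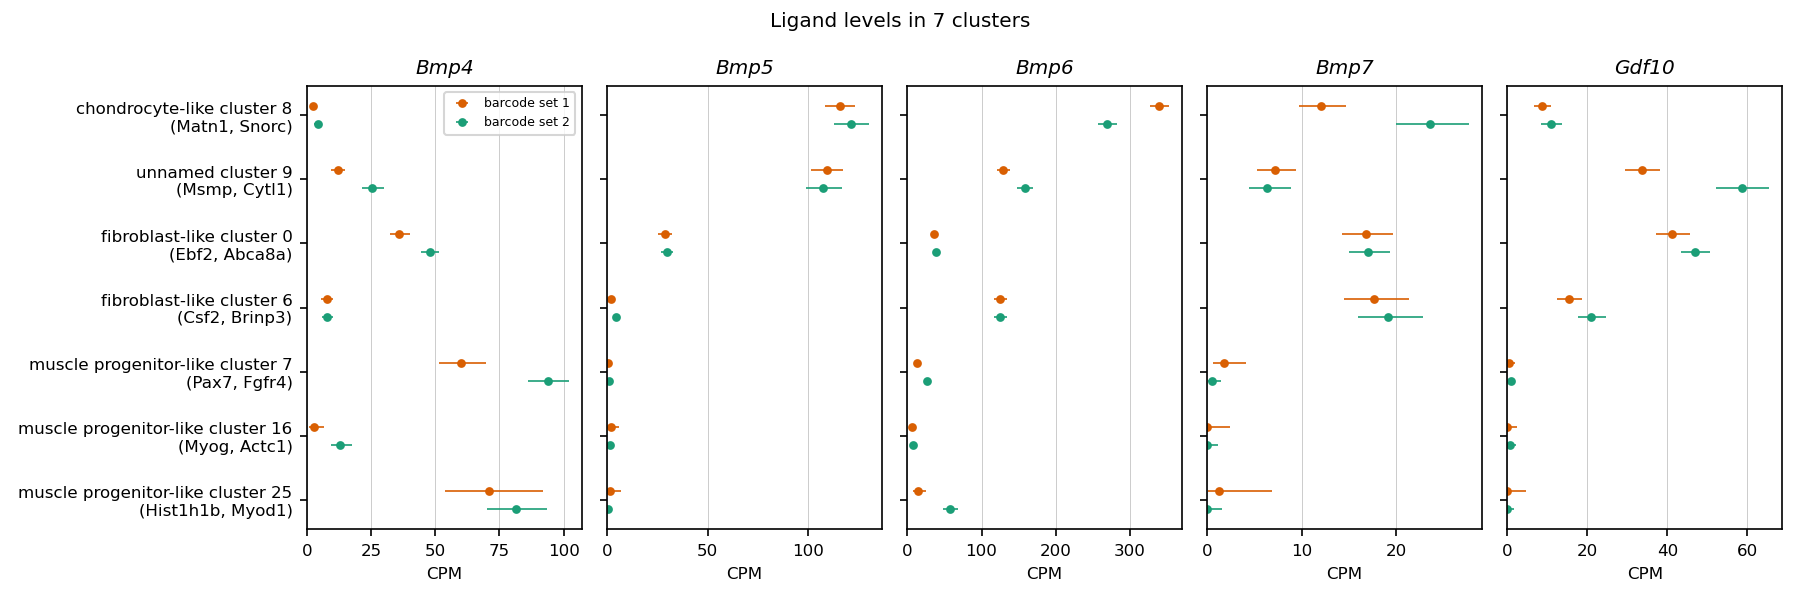
Levels of 5 ligand genes in 7 clusters, in CPM on linear axes; points are barcode sets 1 and 2 and lines are exact 95% Poisson intervals. Bmp6 is highest in chondrocyte-like cluster 8 and is at 125 CPM in fibroblast-like cluster 6, Gdf10 is highest in cluster 9 and fibroblast-like cluster 0, and Bmp4 is low in the Myog-led muscle progenitor-like cluster 16.

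Bmp5 was also called higher in pericyte-like or smooth muscle-like cells and in osteoblast-like cells. In the 114 pericyte-like or smooth muscle-like cells, which surround vessels, it had 79.9 CPM in set 1 and 110.4 CPM in set 2, against 25.3 CPM in all other kept cells (ratio 3.71, 3.08 to 4.44). It was the only one of the 10 called higher there, where 9.73% of genes were, and Bmp4, Bmp7 and Gdf10 were called lower, where 12.8% of genes were. Bmp4 had no UMI in this class, at least 8.14-fold below all other kept cells with a floor of 3 counts over the class. The chondrocyte markers summed to 117 CPM (set 1) and 135 CPM (set 2) of these cells, far under those of chondrocyte-like cells, and at 2000 UMIs 13.1% of them had a Bmp5 UMI.

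In the 540 osteoblast-like cells, the bone-forming class, Bmp5 had 58.1 CPM (set 1) and 50.1 CPM (set 2), against 24.0 CPM in all other kept cells (ratio 2.29, 2.11 to 2.48). It was the only one of the 10 called higher, where 6.86% of genes were, and Bmp6 and Bmp7 were called lower, where 20.5% were. The ratio was 1.69 when blood cells were left out of the other cells, so that the call was then lost. Bmp2 in osteoblast-like cells had 115 CPM (set 1) and 68.8 CPM (set 2) and was not called (ratio 1.79). In set 1 this was the second highest of the named classes, and in set 2 macrophage-like and synovial lining fibroblast-like cells lay above it.

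Macrophage-like cells (cluster 4, led by Ccl4, Ifnb1 and C1qa) carried Bmp2 almost alone among the 7 ligands. Their Gdf15, which is outside the 7, is given with the other ligands below. Bmp2 in macrophage-like cells was at 71.2 CPM (set 1) and 104 CPM (set 2), below the call rule at a ratio of 1.59 (1.48 to 1.69), and it made up 90.0% of the UMIs of the 7 ligands in these cells. At 2000 UMIs per cell 11.1% of macrophage-like cells (median 10544 UMIs) had a Bmp2 UMI, against 0.252% of the blood background (median 5342 UMIs). Of the 10 genes, none was called higher in macrophage-like cells, where 9.54% of genes were, and 8 were called lower, where 45.2% were. Chondrocyte markers summed to 813 CPM (set 1) and 115 CPM (set 2) of these cells, and their part in the Bmp2 level was not tested.

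Turning to the receptors, Bmpr1a was called higher in none of the 17 classes and lower in 8. Bmpr1a encodes the type I receptor ALK3, and its highest levels were 165 CPM in pericyte-like or smooth muscle-like cells (147 in set 1 and 186 in set 2) and 165 CPM in fibroblast-like cells (165 and 164). Tenocyte-like or ligament fibroblast-like cells followed with 156 and 143 CPM. The first 2 did not differ beyond their intervals. Endothelial-like cells were low, at 23.5 CPM (set 1) and 25.1 CPM (set 2), 4.19-fold (3.60 to 4.91) below all other kept cells. The other 7 classes called lower were skeletal myofibre-like cells and 6 blood or immune classes, in the range of 4.54 CPM in granulocyte progenitor-like cells and 47.3 CPM in skeletal myofibre-like cells. At 2000 UMIs per cell a Bmpr1a UMI was seen in 27.1% of fibroblast-like cells (median 13914 UMIs) and 0.785% of erythroid-like cells (median 5098 UMIs).

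Bmpr1b, which encodes the type I receptor ALK6 and is known as a main receptor for Gdf5, was highest in the 594 tenocyte-like or ligament fibroblast-like cells. It had 136 CPM (set 1) and 96.8 CPM (set 2), against 20.1 CPM in all other kept cells, a ratio of 5.65 (5.30 to 6.02). Both sets stood above every other named class, the next being osteoblast-like cells at 35.4 and 29.7 CPM. Bmpr1b was the only one of the 10 genes called higher in the tendon-type class, where 5.4% of genes were, and Bmp7 the only one called lower, where 23% were. At 2000 UMIs 14.6% of these cells (median 13522 UMIs) had a Bmpr1b UMI, against 0.206% of the blood background. The Bmpr1b window printed above is the one of the 3 with the fewest guanines and cytosines.

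The class in which Bmpr1b was highest was not the one in which Gdf5 was. Gdf5 had 10 UMIs, 0.916 CPM, in tenocyte-like or ligament fibroblast-like cells, while Bmpr1b in chondrocyte-like cells was at 21.6 CPM (set 1) and 11.2 CPM (set 2). Over 33 clusters, the correlation of the log2 levels of Gdf5 and Bmpr1b was 0.24 in set 1 and -0.01 in set 2, a description in which all clusters share the libraries. The unnamed cluster 23, led by Dnah12, had Bmpr1b at 123 CPM (set 1) and 97.9 CPM (set 2), as high as the tendon-type class.

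Bmpr1b made up 43.3% (41.5 to 45.2) of the UMIs of Bmpr1a and Bmpr1b in tenocyte-like or ligament fibroblast-like cells, 46.5% in set 1 and 40.4% in set 2. The share was 21.8% in osteoblast-like cells, 18.8% in chondrocyte-like cells (25.2% and 11.6%), 12.1% in fibroblast-like cells (15.7% and 9.29%) and 12.1% in cluster 9 (15.4% and 8.03%). In chondrocyte-like, fibroblast-like and cluster 9 cells alike, the share was higher in set 1 than in set 2 without overlap of the intervals. The unnamed cluster 23 had 54.6% and 46.6%, with intervals that overlap those of the tendon-type class in each set. Neutrophil-like cells lay at 1.99%, with almost all UMIs of the 2 genes from Bmpr1a.

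**Figure D3:**
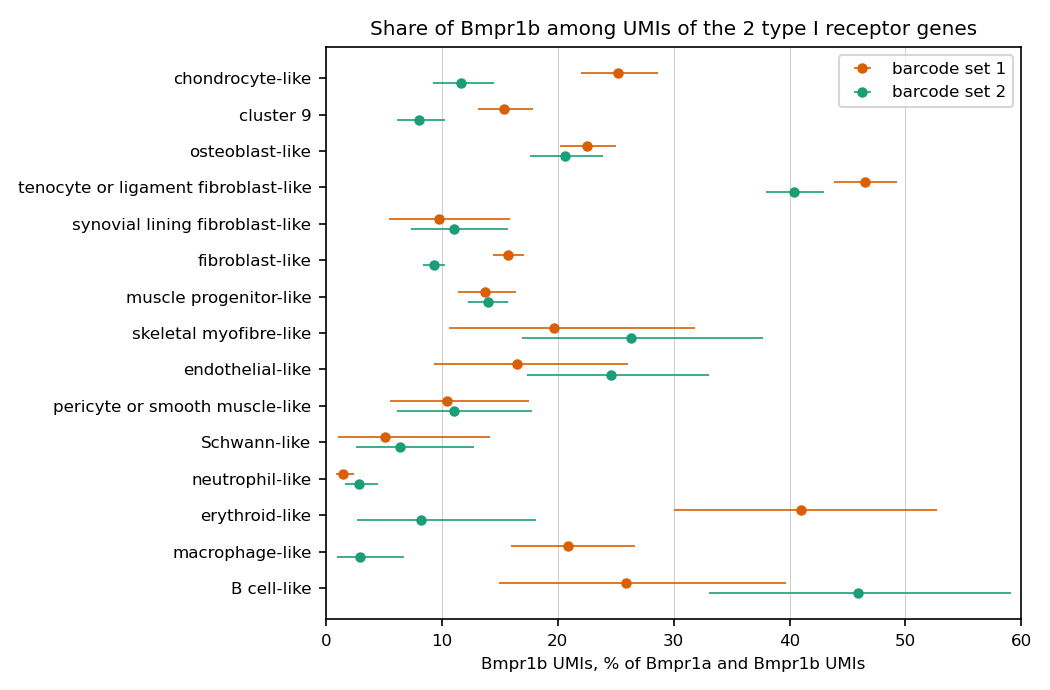
Share of Bmpr1b among the UMIs of Bmpr1a and Bmpr1b, in percent, for populations with at least 50 such UMIs in each barcode set; points are the sets and lines are exact 95% Clopper-Pearson intervals. Tenocyte-like or ligament fibroblast-like cells, at 46.5% and 40.4%, lie above the other named connective tissue classes in both sets, and erythroid-like and B cell-like cells have wide intervals.

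Bmpr2, the type II receptor shared by most BMPs and the gene mutated in heritable pulmonary arterial hypertension, was called higher in mast-like and endothelial-like cells. In the 124 mast-like cells it had 1506 CPM (set 1) and 1056 CPM (set 2), against 111 CPM in all other kept cells, a ratio of 12.2 (11.5 to 12.9). No other class came near it, and Bmpr2 was the only one of the 10 called higher there, where 6.77% of genes were, with 5 called lower, where 25.3% were. The signal was spread over cells: 98 of the 124 had a Bmpr2 UMI (79.0%), the median cell had 723 CPM, and the cell with the most UMIs gave 6.61% of them. The spread was less even in set 2, where 69.6% of cells had a UMI, the lower quartile was 0 and the median was 371 CPM. There 1 cell gave 18.2% of the UMIs. In set 1 the share was 86.8%, the median 1236 CPM and the top cell gave 9.08%. At 2000 UMIs per cell the share was 71.4% in mast-like cells (median 4611 UMIs), against 1.21% in erythroid-like cells (median 5098 UMIs).

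The mast-like class rested on its own markers, whose 6 genes summed to 46797 CPM (set 1) and 78526 CPM (set 2). Chondrocyte markers were also counted in it, at 6431 CPM (set 1) and 92.8 CPM (set 2), with 3 of the 9 at 0 in set 2. Bmp5 (39.3 CPM in set 1 and 0 in set 2) and Bmp6 (49.6 CPM (set 1) and 3.198 CPM (set 2)) in mast-like cells moved with those markers, and the part of the markers in these 2 levels was not tested. Synovial lining markers summed to 768 CPM (set 1, 3 of the 5 at 0) and 1017 CPM (set 2, 4 of the 5 at 0) of mast-like cells, and their part in the Bmpr2 level was not tested.

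In the 244 endothelial-like cells Bmpr2 had 227 CPM (set 1) and 263 CPM (set 2), against 111 CPM in all other kept cells (ratio 2.22, 2.11 to 2.33). It was the only one of the 10 called higher, where 10.5% of genes were, and Bmpr1a, Bmpr1b, Bmp7 and Gdf5 were called lower, where 21.1% were. The ratio was 1.92 without blood cells among the other cells, so that the call was then lost. Among connective tissue classes Bmpr2 was at 165 CPM in fibroblast-like, 159 CPM in synovial lining fibroblast-like and 71.3 CPM in chondrocyte-like cells. Erythroid-like cells had 12.1 CPM, and all 10 genes were called lower in them, where 71.1% of genes were, and none higher, where 8.83% were.

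**Figure D4:**
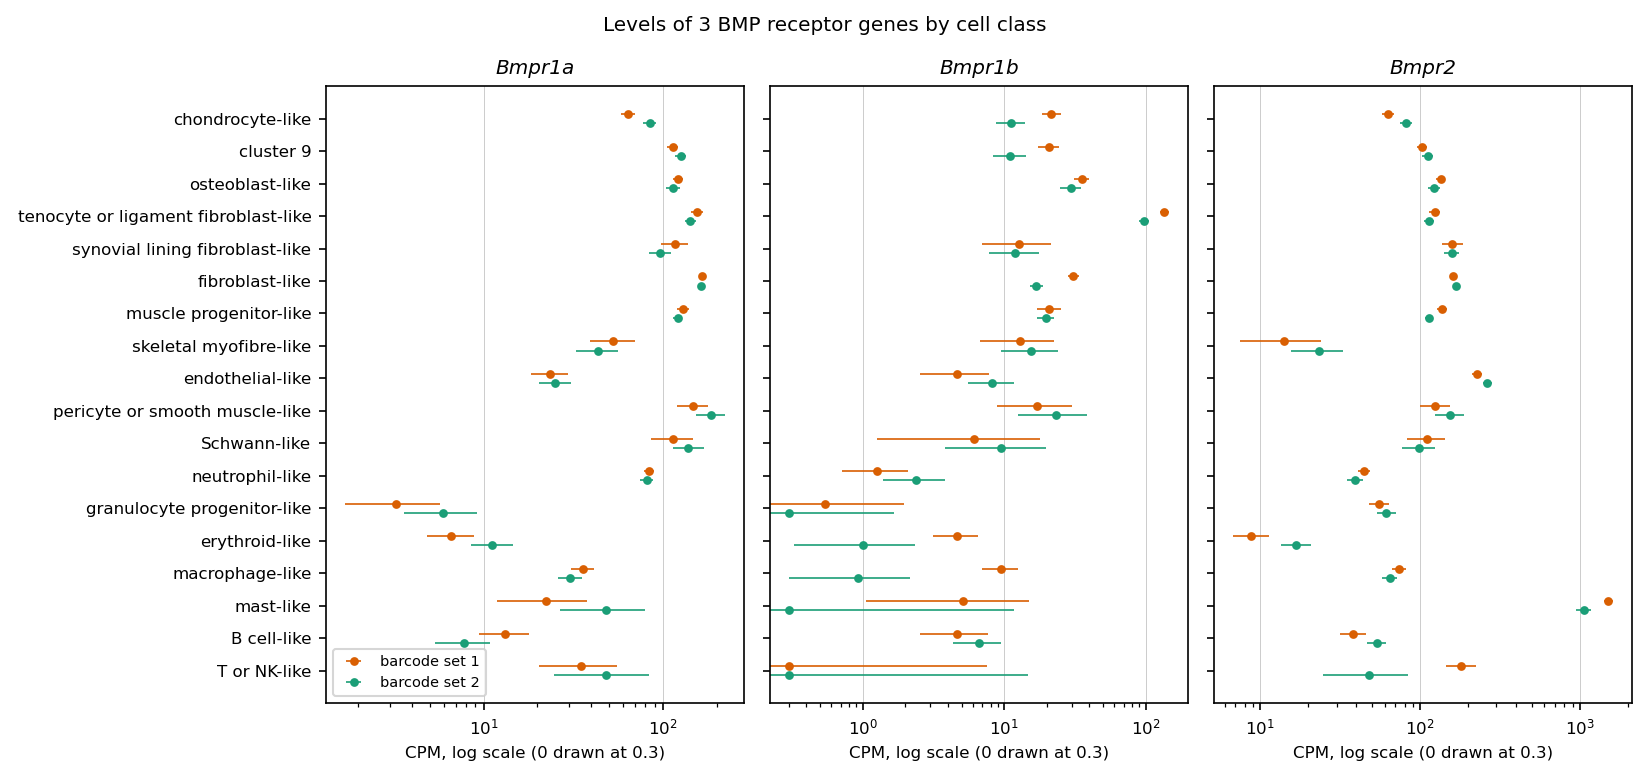
Levels of the 3 receptor genes in 17 named classes and cluster 9, in CPM on log axes; points are barcode sets 1 and 2, lines are exact 95% Poisson intervals and a level of 0 is drawn at 0.3. Bmpr1a is at 63.9 CPM or more in the connective tissue classes and low in endothelial-like and erythroid-like cells, Bmpr1b peaks in tenocyte-like or ligament fibroblast-like cells, and Bmpr2 stands at 1506 and 1056 CPM in mast-like cells.

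The sums of the 7 ligands and of the 3 receptors differed in their order over the classes. Chondrocyte-like cells had 662 CPM of the 7 ligands and 161 CPM of the 3 receptors, and cluster 9 had 537 and 242 CPM. Tenocyte-like or ligament fibroblast-like cells had 206 CPM of ligands and 379 CPM of receptors, and fibroblast-like cells 214 and 352 CPM. Mast-like cells had the highest receptor sum of the 17 classes, 1384 CPM, nearly all of it Bmpr2, with 70.2 CPM of ligands. Synovial lining fibroblast-like cells had 248 CPM of ligands and 274 CPM of receptors, and pericyte-like or smooth muscle-like cells 212 and 323 CPM. In both classes the 2 sums were above those of all kept cells (184 and 240.2 CPM). The same held for osteoblast-like, tenocyte-like or ligament fibroblast-like and fibroblast-like cells and for cluster 9. In endothelial-like cells the sums were 135 CPM of ligands and 278 CPM of receptors. The share of cells with a UMI of Bmpr1a or Bmpr1b together with a Bmpr2 UMI was taken at 2000 UMIs per cell. It was 10.3% (5.24 to 17.7) in pericyte-like or smooth muscle-like cells and 8.46% (7.30 to 9.73) in fibroblast-like cells. In chondrocyte-like cells it was 2.46% (1.44 to 3.92) and in endothelial-like cells 1.32% (0.272 to 3.80). Other type I receptor genes, such as Acvr1 and Acvrl1, were not counted in this share, so a low share does not mean that a receptor pair is lacking. Because neutrophil-like cells themselves carried Bmpr1a (82.8 CPM), erythroid-like cells, at 0.363% (0.133 to 0.787), are the background here, and the interval of endothelial-like cells overlaps theirs.

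Levels also differed between the barcode sets within classes. Bmp4 was lower in set 1 than in set 2 in each of the 6 classes with 100 or more of its UMIs, with an interval below 1 in 4 of them, a median ratio of 0.689 and a lowest of 0.374 in synovial lining fibroblast-like cells. Bmpr1b was higher in set 1 in each of the 5 classes with 100 or more UMIs, with an interval above 1 in 3 of them and a median ratio of 1.40, at 1.93 (1.46 to 2.58) in chondrocyte-like and 1.82 (1.58 to 2.10) in fibroblast-like cells. Bmpr1a differed little, with a median of 1.03 over 13 classes. Bmp6 had no common direction, at 0.492 in tenocyte-like or ligament fibroblast-like, 0.415 in muscle progenitor-like and 2.02 in endothelial-like cells. Of all genes tested, 2.65%, 2.9% and 2.75% differed more than 2-fold between sets in these classes, and 3.78% in synovial lining fibroblast-like cells. Bmpr2 had the largest ratio, 3.76 in T or NK cell-like cells (88 UMIs or 180 CPM against 12 UMIs or 48.0 CPM), where 11.8% of genes did. The common directions of Bmp4 and Bmpr1b were not set against other genes. The barcode sets are 2 sets of droplets, and the data do not show the spread between libraries within a set.

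For each of the 10 genes, the genes with the most similar pattern were taken by the lower of the 2 sets' Pearson r of log2(CPM + 10) over 33 clusters, among 14785 genes. Cyp26b1, a retinoic acid-degrading enzyme gene, was nearest to Bmp2 (r 0.88 in set 1 and 0.86 in set 2), followed by Cspg4 and Crim1. Cspg4 was nearest to Bmp6 (0.90 and 0.86), then Uggt2 and Nckap1. Foxs1 was nearest to Bmp5 (0.89 and 0.90), then Slc2a10 and Mfge8, and the cartilage genes Clec3a and Ucma, with Wfdc2, were nearest to Gdf5 (Clec3a 0.87 and 0.86). Fxyd6 led for Bmp4 (0.86 in both sets) before Gm32219 and Plcd3, and Srpx led for Gdf10 (0.80 and 0.85) before Rbp4 and Cpz. The Bmp7 pattern had weaker neighbours, Has2os (0.67 and 0.68), Efemp1 and B930095G15Rik.

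Among receptors, Timp2 was most like Bmpr1a (0.81 and 0.80), then Igf2r and Map1lc3a. Ak5 was most like Bmpr1b (0.79 and 0.84), then Fbn2 and Lrig3, and Tm9sf3 was most like Bmpr2 (0.89 and 0.87), then Hspa13 and Fyn. Between members, by the lower of the sets' r, the highest was that of Bmp2 with Bmp6, at 0.76 in set 1 and 0.78 in set 2, while Bmp5 with Bmp6 had 0.77 in set 1 and 0.64 in set 2. Clusters share their libraries and free RNA, so these r values describe the pattern only.

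Of the wider pathway, 5 lists of other ligands, other receptors and co-receptors, antagonists, signal transducers and targets were counted by the same rule. Genes named below are the 2 with the most UMIs in each list and the one with the highest called ratio in each class where a member peaked. The others named were chosen after their values were seen. The shares of all genes called higher and lower in a class, given with the counts of the 10 genes above, are the background of these counts too.

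Among 16 other ligand genes, 9 had enough UMIs for a call. Inhba, which encodes the subunit of activin A, was at 662 CPM (set 1) and 503 CPM (set 2) of chondrocyte-like cells, against 143 CPM in all other kept cells (ratio 4.13, 4.03 to 4.24), and was the only other ligand called higher there, while 5 were called lower. In synovial lining fibroblast-like cells Inhba reached 1179.6 CPM (set 1) and 1139.8 CPM (set 2) (ratio 7.31). Gdf15, a stress-induced ligand, was at 859 and 900 CPM in macrophage-like cells, against 45.7 CPM in all other kept cells (ratio 19.2, 18.7 to 19.8). Mstn, the muscle growth inhibitor myostatin, was at 27.5 CPM (set 1) and 9.91 CPM (set 2) of tenocyte-like or ligament fibroblast-like cells (ratio 7.78, with 15.9 and 3.58 in the sets). Gdf6, a close relative of Gdf5, was at 5.63 CPM in cluster 9, against 0.177 CPM in all other kept cells (ratio 31.8, 20.99 to 49.1), and was called lower in chondrocyte-like cells.

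All 13 other receptors and co-receptors had enough UMIs. Acvr1, which encodes the type I receptor ALK2, was called higher in chondrocyte-like cells, at 141 CPM (set 1) and 139 CPM (set 2), against 65.0 CPM (ratio 2.15), and at 238 CPM in cluster 9 (ratio 3.98). In chondrocyte-like cells 2 of the 13 were called higher and 7 lower, with a median log2 ratio of -1.12, against -0.48 over all genes tested. Tgfbr3, the co-receptor betaglycan, was at 212 and 283 CPM in tenocyte-like or ligament fibroblast-like cells, against 111 CPM (ratio 2.27, at 1.99 in set 1). In endothelial-like cells 4 of the 13 were higher, among them the vessel receptors Eng (378 and 338 CPM, ratio 20.7) and Acvrl1 (52.6 and 60.3 CPM, ratio 3.81).

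Of 16 antagonist genes, 14 had enough UMIs. Fibroblast-like cells had 6 of the 14 higher and 1 lower (9.53% and 22% of all genes), with a median log2 ratio of 0.35, against -0.09 over all genes tested. Among these, Chrdl1, a chordin-like antagonist, was at 52.9 and 49.8 CPM, against 8.63 CPM (ratio 5.92), Fst, which binds activin, was at 303 CPM (ratio 3.76), and the follistatin-like Fstl1 was at 2778 CPM (ratio 4.72). Osteoblast-like cells had 4 higher (6.86% of all genes), among them Nog, which encodes noggin, at 26.5 CPM (set 1) and 18.3 CPM (set 2) (ratio 6.46), and Grem1 at 52.1 and 13.6 CPM (ratio 6.53). Chrdl2 was at 16.7 and 28.9 CPM in muscle progenitor-like cells, against 0.678 CPM (ratio 37.1, 30.4 to 45.3). Nbl1 was highest in synovial lining fibroblast-like cells, at 456 and 462 CPM (ratio 3.89). Chondrocyte-like cells had none of the 14 higher and 7 lower, where 33.5% of all genes were called lower. Macrophage-like cells had all 14 lower, where 45.2% of all genes were, and endothelial-like cells had none higher and 11 lower, where 21.1% of all genes were.

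Of the 6 signal transducers, Smad4 was called higher in none of the 17 classes and Smurf2, a ubiquitin ligase of the pathway, reached a ratio of 1.72 in fibroblast-like cells without a call. Smad1 and Smad5 were called higher in endothelial-like cells. Of the 10 targets, 5 were called higher in endothelial-like cells (Id1, Smad6, Msx1, Atoh8 and Hey1) and none lower (10.5% and 21.1% of all genes), with a median log2 ratio of 1.24, against -0.07 over all genes tested. Id1, a direct target of BMP Smads, was there at 378 CPM (set 1) and 373 CPM (set 2) (ratio 3.63), and Hey1 at 44.6 and 55.8 CPM (ratio 14.4).

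Of the 10 targets, 4 were called higher and none lower in pericyte-like or smooth muscle-like cells (9.73% and 12.8% of all genes), led by Id4 at 123 and 97.2 CPM, against 5.42 CPM (ratio 20.4, 17.1 to 24.3). Id3 was at 662 and 786 CPM in tenocyte-like or ligament fibroblast-like cells, at a ratio of 2.03 that fell to 1.51 without blood cells among the other cells. Id2 was at 781 and 633 CPM in mast-like cells (ratio 5.56), and the other targets there were lower in 6 cases and higher for Smad7. In chondrocyte-like cells, the class with the most ligand UMIs, 1 target was higher, Msx2, on 19 UMIs, and 4 were lower. Whether these targets were read out from BMP signals in these cells was not tested.

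**Figure D5:**
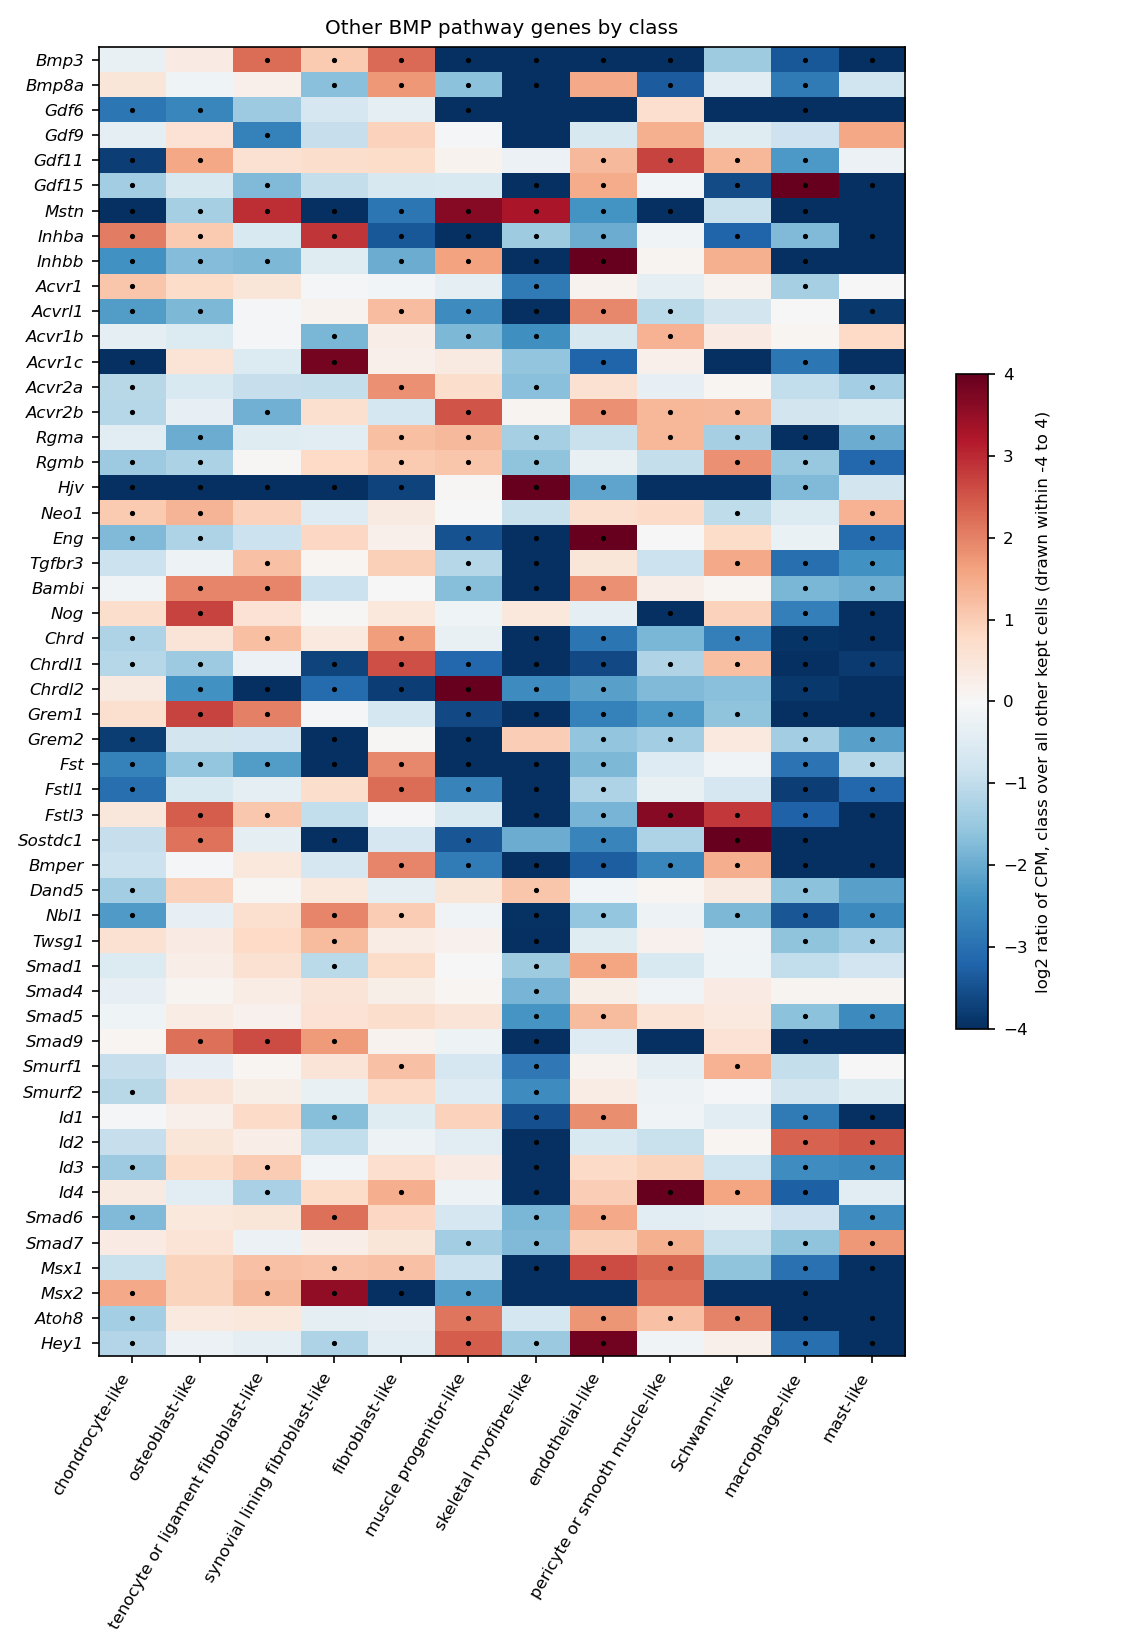
Ratios of 52 other pathway genes in 12 classes against all other kept cells, as log2 of the CPM ratio drawn within -4 to 4; a dot marks a call by the rule. Antagonists (Nog to Twsg1) are mostly lower in macrophage-like and mast-like cells and include 6 higher calls in fibroblast-like cells, and endothelial-like cells hold 5 of the higher target calls.

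The genes lie on several chromosomes of mm10, and coordinates below are those of GENCODE M21 for the whole gene, exons and introns together. On chromosome 2 lie Bmp2 (133552159 to 133562885, plus strand), Gdf5 (155941023 to 155945367, minus strand) and Bmp7 (172868012 to 172940321, minus strand). Chromosome 14 holds Gdf10 (33923587 to 33937983, plus strand), Bmpr1a (34410734 to 34503341, minus strand) and Bmp4 (46383520 to 46390669, minus strand). Bmpr2 lies on chromosome 1 (59763400 to 59879014, plus strand), Bmpr1b on chromosome 3 (141837136 to 142169425, minus strand), Bmp5 on chromosome 9 (75775364 to 75900310, plus strand) and Bmp6 on chromosome 13 (38345107 to 38500302, plus strand). Genes on the other strand that are also counted in the matrix overlap Bmp4 (Gm15217 and Gm15222), Bmp5 (Gm26903), Bmp6 (4930579J19Rik and Txndc5), Gdf5 (Gm15557) and Bmpr1a (Gm17110), and the sources used here do not say whether strand was used in counting.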

How the data were processed

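Single-cell RNA was counted in KO and WT knee joint cells. The deposited matrix holds raw UMI counts per gene and barcode, made by the authors with Cell Ranger 7.0.0 per the file headers, with mm10 named in the submitters' processing notes. Whether intron reads were counted, and on which strand, was not stated in what was read.

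Of 24203 barcodes, 15174 passed the filter of 500 genes and 1000 UMIs or more, with no more than 10% of UMIs mitochondrial. They were clustered with scanpy 1.11.5 and leidenalg 0.10.2 (Python 3.11.15) from 2000 variable genes, 30 principal components and 15 neighbours at resolution 1. The 10 genes, the pathway lists, collagen, mitochondrial, ribosomal and sex-linked marker genes were left out of the clustering. Classes were named from listed markers, by a naming rule set after the clusters had been seen: the highest mean marker log2 fold, a mean and a median log2 fold of at least 1, at least 3 raised markers, 1 marker among the 100 leading genes, and no more markers of another class than of its own among the 10 leading genes. Scrublet marked 2 cells among 7160 (set 1) and 1 among 8014 (set 2), too few to have worked, so no doublets were removed and some probably remain.

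Exact Poisson, conditional binomial and Clopper-Pearson intervals (scipy 1.17.1) cover counting error only. The calling code was tested on simulated counts, and the code for ratio and share intervals on fixed cases. The thinning code and the Poisson intervals were not tested in this way. No p-value was computed, since the merged matrix gives no replicates and no barcode set is tied to a genotype. The 10 genes and all lists were chosen with earlier results of these data known. Genes named by rule besides the 10 were, in each list, the 2 with the most UMIs and, in each class where one of the 10 was highest, the one with the largest called ratio, and for each of the 10 the 3 of most similar pattern. Other pathway genes were named after their values had been seen. The alternatives were other cell filters, either barcode set left out, other resolutions, seeds and component numbers, a pool without blood cells, other ratio thresholds and other thinning depths.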

Additional observations from a re-analysis of the deposited data

How the results depend on the processing

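With a ratio of 1.5 in place of 2, 23 pairs were called higher in place of 14. Of the 14 pairs, 10 were called under all 18 settings run. The other pairs were Bmp4 in synovial lining fibroblast-like cells (17 of 18, 1.57 with 15 principal components), Bmp5 in osteoblast-like cells (13 of 17), Bmpr2 in endothelial-like cells (16 of 18) and Gdf10 in fibroblast-like cells (15 of 18). No ratio turned its direction, and the cause of each lost call was not tested. Among the 18 settings, a ratio of 1.5 and a lower UMI minimum could not remove a call. Leaving out the few cells marked by Scrublet could hardly change one, so these settings say little about how firm a call is. The stricter ratio threshold, in turn, lay above the main ratios of Bmp5 in osteoblast-like, Bmpr2 in endothelial-like and Gdf10 in fibroblast-like cells. It had to remove those calls, so that loss only restates the size of their ratios. Bmp6 in cluster 9 was at 1.88 without blood cells among the other cells.

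Shares of cells follow depth. At 1000 UMIs, and without thinning, Bmp2 was seen in 13.8% and 65.1% of chondrocyte-like cells, Bmp5 in 10.0% and 65.2%, Bmp6 in 17.2% and 61.4%, Bmp4 in 5.73% and 34.7% of muscle progenitor-like cells, and Bmpr1b in 9.43% and 47.8% of tenocyte-like or ligament fibroblast-like cells. Bmpr2 was seen in 48.4% of mast-like cells at 1000 UMIs. The class with the highest Bmp7 was chondrocyte-like in place of fibroblast-like under 7 settings. The highest class became chondrocyte-like for Gdf10 with 200 genes and 500 UMIs, synovial lining fibroblast-like for Bmp4 without barcode set 1, and fibroblast-like for Bmpr1a without barcode set 2 and with clustering seed 5. A looser naming rule, unrounded components and naming without the condition on leading genes were chosen after seeing the data. No paired analysis was possible because no barcode set or cell is tied to a library or genotype.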

Other observations

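Bmpr1a was uneven among neutrophil-like clusters. Cluster 2 had 131 CPM (set 1) and 137 CPM (set 2), while cluster 17 had 23.0 CPM (set 1) and 26.0 CPM (set 2), and the class as a whole had 82.8 CPM. Unnamed clusters also carried members. Cluster 1, led by S100a4, Dclk1 and Tac1, had Bmpr1b at 62.0 CPM (set 1) and 35.6 CPM (set 2), and Gdf10 at 28.0 CPM over both sets. Cluster 11, led by Cxcl5, Csf3 and Saa3, had Gdf10 at 31.2 CPM and Bmpr1b at 45.7 CPM (set 1) and 11.5 CPM (set 2). Gdf10 in endothelial-like cells had 19.8 CPM (set 1) and 2.12 CPM (set 2), and chondrocyte markers there summed to 279 CPM (set 1) and 1246 CPM (set 2). These values were picked after they had been seen, and what lies behind them was not tested.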
